A study of Mus musculus with 6 samples.

Results

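The blood vessels of fat are lined by endothelial cells, and 35 genes that mark these cells or steer vessel growth were followed in epididymal white adipose tissue (eWAT), the fat pad around the male gonad, of mice that lack Mettl14 in adipocytes. The genes were given as a list of names, drawn up with earlier results of these data known, and all 35 were found among the 21361 genes of the expression table. Of these, 30 are genes of the endothelial cell itself (junction proteins, receptors, transcription factors, Notch pathway genes and other surface or secreted proteins) and 5 are the ligands Angpt1, Angpt2, Vegfa, Vegfb and Vegfc. Mettl14 is a subunit of the enzyme complex that writes N6-methyladenosine (m6A) on RNA.

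RNA was sequenced from the eWAT of 6 male mice, 3 per genotype, each library from a separate mouse. Mettl14Δfat mice carry floxed Mettl14 alleles and an adiponectin-Cre transgene, which is active in adipocytes, and the other cells of the pad, endothelial cells and macrophages among them, are not its target. The control mice, Mettl14f/f, carry the floxed alleles without Cre. The titles name the controls as f/f while the genotype field of the labels calls them WT. All 6 mice were put on a high fat diet (HFD) at 8 weeks of age, for 16 weeks by the protocol and 20 weeks by the series' design text, and all were fasted overnight before the tissue was taken. Values are FPKM, fragments counted per kilobase of gene and corrected for sequencing depth, then scaled between libraries, and 3 values in a row belong to replicates 1, 2 and 3 of the group named.

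Endothelial cells are held together by adherens and tight junctions built from VE-cadherin, claudin and immunoglobulin family proteins. They read growth signals mainly through the VEGF receptors and the Tie receptors: VEGF-A acts on Kdr, VEGF-C on Flt4, and angiopoietins on Tek (Tie2), for which Angpt1 is the activating ligand and Angpt2 a context-dependent antagonist. ETS and SOXF transcription factors keep the endothelial program active, and Notch signaling through Dll4 restrains sprouting. In adipose tissue the capillaries deliver lipids and oxygen to adipocytes, which are themselves a source of VEGF-A.

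The sequencing depth, estimated from the steps between the lowest FPKM values, was 18200000 to 25000000 fragments per library, and each of the 34 genes with a recorded length had at least 77 estimated fragments in every library. Mettl14 itself was at 5.35, 5.03 and 5.82 FPKM in Mettl14f/f and at 4.18, 4.11 and 4.28 FPKM in Mettl14Δfat eWAT, a fall of 0.30 on the log2 scale (limma, SE 0.0659, adjusted p = 0.010, and 0.00628 to 0.143 over 15 alternative analyses). Mettl14Δfat replicates 1 and 2 stood apart. They held transcripts of the male germ line and of epididymal epithelium, with Prm1, a sperm protamine, at 57.9, 87.2 and 0.145 FPKM in the 3 Mettl14Δfat libraries and at 0.229, 0.140 and 0.564 FPKM in the 3 Mettl14f/f libraries. Results are therefore also given with Mettl14Δfat replicate 3 as the only knockout library, a fit in which the lone library is assumed to vary like the others.

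The first question was whether endothelial and angiogenic transcripts differed between the genotypes. All 30 endothelial genes were higher in Mettl14Δfat eWAT, with log2 fold changes from 0.43 for Tek to 1.49 for Sox7 and a median of 0.88. For comparison, 24.4% of the 12955 genes tested, those with a mean of 1 FPKM or more, were higher and 25.2% were lower at an adjusted p under 0.05 (limma, Benjamini-Hochberg), and the median log2 fold change of all tested genes was 0.00. The 5 ligands did not move as one group: Vegfa and Vegfc rose, Angpt2 fell, and Angpt1 and Vegfb did not pass the test. Over the 35 genes, 32 were higher, 1 was lower and 2 did not pass. The 3 Mettl14Δfat libraries lay wholly above the 3 Mettl14f/f libraries for 32 genes and wholly below for 1, against 29.7% and 31.2% of all tested genes. The summed level of the 30 endothelial genes was 594.8, 500.3 and 570.5 FPKM in Mettl14f/f and 1035, 1147 and 957.8 FPKM in Mettl14Δfat libraries, and these sums did not overlap. In a whole pad, more endothelial cells and more of these transcripts per endothelial cell cannot be told apart.

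With Mettl14Δfat replicate 3 alone, 24 of the 35 genes were still higher and Angpt2 was still lower in limma's test, where 10.6% of all tested genes were higher and 9.98% lower. The 8 genes that no longer passed were Notch4, Sox17, Flt1, Nos3, Flt4, Aqp1, Tek and Cldn5, whose log2 fold changes there ran from 0.32 to 0.79.

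**Figure D1:**
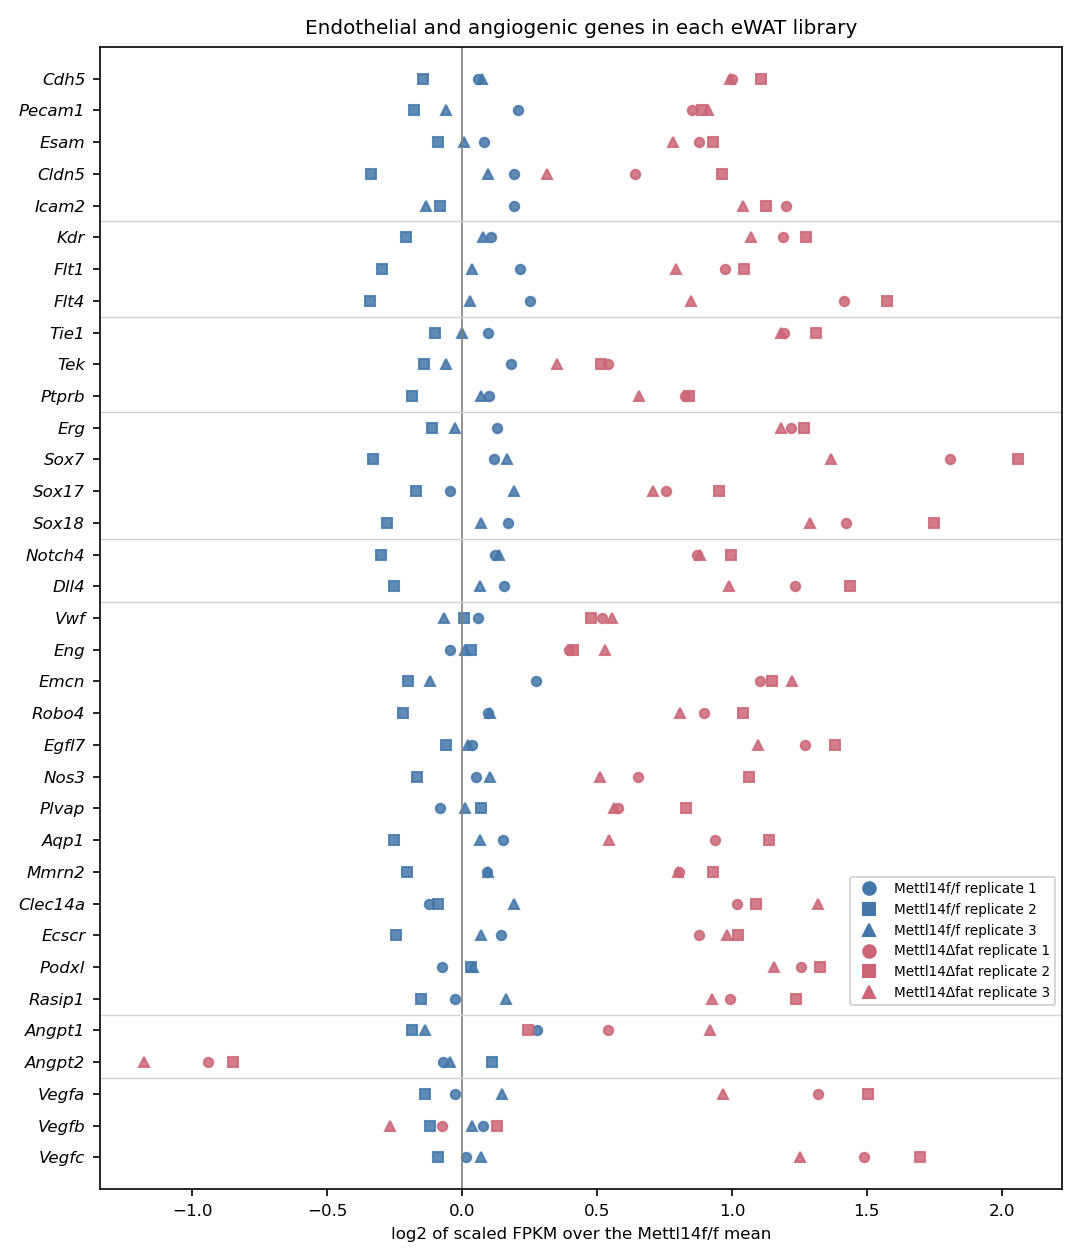
Each point is 1 library, drawn as the log2 of its scaled FPKM over the Mettl14f/f mean of that gene, with Mettl14f/f in blue and Mettl14Δfat in red and the genes in groups by role. The red points lie to the right of the blue points for 32 genes, to the left for Angpt2, and among them for Angpt1 and Vegfb.

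The 5 junction and adhesion genes all rose. Cdh5 (chromosome 8 of GRCm38, 104101613 to 104144504) encodes VE-cadherin, the adherens junction protein of endothelium. It was at 45.4, 39.4 and 45.8 FPKM in Mettl14f/f and at 87.2, 93.9 and 86.6 FPKM in Mettl14Δfat eWAT. The groups were 43.5 ± 3.58 and 89.2 ± 4.04 FPKM (SD, n = 3), 2.05 times apart, far more than the spread within either, with a log2 fold change of 1.02 (SE 0.0770, adjusted p = 0.000309, limma). Pecam1 (CD31), an adhesion protein at endothelial cell borders, was at 52.9, 40.5 and 44.0 FPKM in Mettl14f/f and at 82.7, 84.7 and 86.1 FPKM in Mettl14Δfat libraries, a log2 fold change of 0.88 (adjusted p = 0.00098, limma). Icam2, an adhesion molecule that endothelium carries without activation, was at 8.67, 7.17 and 6.92 FPKM and rose to 17.4, 16.6 and 15.6 FPKM, a log2 fold change of 1.03. Esam, an immunoglobulin family protein of tight junctions, rose by 0.84 on the log2 scale, from 27.2 ± 1.62 to 49.6 ± 2.56 FPKM (SD, n = 3). Cldn5, the endothelial claudin, was the least even of the 5: it was at 50.9, 35.2 and 47.6 FPKM in Mettl14f/f and at 69.4, 86.9 and 55.5 FPKM in Mettl14Δfat libraries. Its groups did not overlap, but the gap between Mettl14f/f replicate 1 and Mettl14Δfat replicate 3 was small beside the spread, and its log2 fold change of 0.65 (SE 0.196, adjusted p = 0.0325, limma) became 0.33 (adjusted p = 0.343) with Mettl14Δfat replicate 3 alone. Its call was also lost without Mettl14f/f replicate 2 (adjusted p = 0.0945), without Mettl14f/f replicate 3 (0.0682), without Mettl14Δfat replicate 1 (0.0857) and without Mettl14Δfat replicate 2 (0.0724).

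All 3 VEGF receptors rose. Kdr (VEGFR2; chromosome 5, 75932827 to 75979072), the main signaling receptor for VEGF-A, was at 11.0, 8.87 and 10.8 FPKM in Mettl14f/f and at 23.4, 24.8 and 21.5 FPKM in Mettl14Δfat eWAT. Every Mettl14Δfat value was at least 21.5 FPKM and no Mettl14f/f value was above 11.0 FPKM, and the log2 fold change was 1.11 (SE 0.0946, adjusted p = 0.000433, limma). Flt1 (VEGFR1), which binds VEGF-A tightly and signals weakly, was at 8.35, 5.85 and 7.39 FPKM and rose to 14.2, 14.9 and 12.5 FPKM, a log2 fold change of 0.86. The ratio of Flt1 to Kdr was 0.756, 0.660 and 0.682 in Mettl14f/f and 0.607, 0.599 and 0.579 in Mettl14Δfat libraries, so that Kdr was the higher of the pair in all 6 libraries. Flt4 (VEGFR3), the receptor for VEGF-C and VEGF-D on lymphatic and sprouting endothelium, was the lowest of the 3. It was at 2.31, 1.53 and 1.98 FPKM in Mettl14f/f and at 5.18, 5.78 and 3.49 FPKM in Mettl14Δfat libraries, a log2 fold change of 0.97 on the log2(FPKM + 1) scale, which understates changes of low genes.

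The Tie receptors both rose, but by different amounts. Tie1 (chromosome 4, 118471191 to 118489849), an endothelial receptor that forms complexes with Tek, was at 13.7, 12.0 and 12.9 FPKM in Mettl14f/f and at 29.4, 31.9 and 29.2 FPKM in Mettl14Δfat eWAT, a log2 fold change of 1.17 (SE 0.0679, adjusted p = 0.000174, limma). Tek (chromosome 4, 94739086 to 94874976), the receptor that binds the angiopoietins, was at 8.49, 6.78 and 7.19 FPKM in Mettl14f/f and at 10.9, 10.7 and 9.56 FPKM in Mettl14Δfat eWAT, a log2 fold change of 0.43 (SE 0.0904, adjusted p = 0.00891, limma). Both genes separated the genotypes without overlap. Within each library the ratio of Tek to Tie1 was 0.619, 0.566 and 0.559 in Mettl14f/f and 0.370, 0.335 and 0.328 in Mettl14Δfat, and in a fit of every gene relative to Tie1 the log2 fold change of Tek was −0.75 (adjusted p = 3.1e-05, limma). Ptprb (VE-PTP), a phosphatase that acts on Tek and VE-cadherin, rose from 7.35 ± 0.781 to 12.6 ± 0.870 FPKM (SD, n = 3), a log2 fold change of 0.70.

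Because these endothelial genes moved together, their promoters were looked at for 3 short motifs. RefSeq sequences of GRCm38.p6, from 250 bases before to 50 after the transcription start, were found for 19 of the 35 genes, as 24 promoters. The promoters of Tie1 and Tek are shown since these receptors of 1 pathway rose by different amounts, and that of Kdr as the main VEGF receptor. Each runs 5′ to 3′ on the strand of its gene: Tie1 at chr4:118489800-118490099 on the minus strand, Tek at chr4:94739039-94739338 on the plus strand, and Kdr at chr5:75978406-75978705 on the minus strand. Capitals mark 3 sets of letters or their reverse complements. GGAAG is 1 form of the core read by ETS factors such as Erg. ACAAT is a core read by SOX factors, and ACGTG is 1 form of the core of the hypoxia response element. Other forms of these cores were neither searched nor marked, so a promoter without these letters may still hold a core.
Tie1: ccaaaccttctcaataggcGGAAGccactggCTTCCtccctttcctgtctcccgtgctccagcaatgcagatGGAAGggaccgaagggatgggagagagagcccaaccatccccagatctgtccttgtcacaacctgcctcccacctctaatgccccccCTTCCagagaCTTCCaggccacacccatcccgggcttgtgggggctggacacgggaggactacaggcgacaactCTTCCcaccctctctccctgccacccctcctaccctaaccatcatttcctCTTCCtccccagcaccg
Tek: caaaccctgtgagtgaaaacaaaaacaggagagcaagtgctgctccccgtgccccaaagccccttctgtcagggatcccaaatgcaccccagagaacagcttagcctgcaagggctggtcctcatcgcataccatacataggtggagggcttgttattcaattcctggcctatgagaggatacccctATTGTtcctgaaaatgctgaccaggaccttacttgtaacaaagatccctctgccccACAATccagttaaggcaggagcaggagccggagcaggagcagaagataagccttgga
Kdr: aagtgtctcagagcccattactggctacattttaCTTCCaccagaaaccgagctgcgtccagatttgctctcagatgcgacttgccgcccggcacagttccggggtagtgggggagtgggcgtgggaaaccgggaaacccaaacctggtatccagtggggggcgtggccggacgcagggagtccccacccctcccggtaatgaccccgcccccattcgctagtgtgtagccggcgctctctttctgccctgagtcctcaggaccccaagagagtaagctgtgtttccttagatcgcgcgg
The Tie1 promoter held GGAAG at 7 places, that of Kdr at 1 and that of Tek at 0, while that of Tek held ACAAT at 2 places. Searched on both strands, GGAAG was in 18 of the 24 promoters (75.0%) against 71.4% of all 32851 promoters of that length, ACAAT in 6 (25%) against 31.0%, and ACGTG in 2 (8.33%) against 19.6%. These 3 motifs do not overlap one another. A match describes the letters of the window and not a bound site, and the shares in these genes were close to or below those in all promoters.

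The 4 transcription factors rose, with a median log2 fold change of 1.27. Erg, the ETS factor that maintains endothelial identity, was at 5.55, 4.69 and 4.98 FPKM in Mettl14f/f and at 11.8, 12.2 and 11.5 FPKM in Mettl14Δfat eWAT, a log2 fold change of 1.08 (SE 0.0671, adjusted p = 0.000189, limma). Sox7, Sox17 and Sox18 are the SOXF factors, which act in the specification of arteries and lymphatics. Sox18 (chromosome 2, 181669837 to 181671640) was at 25.3, 18.5 and 23.5 FPKM in Mettl14f/f and at 60.2, 75.5 and 54.9 FPKM in Mettl14Δfat libraries, a log2 fold change of 1.46 (SE 0.153, adjusted p = 0.000767, limma). Sox7 was at 3.40, 2.49 and 3.51 FPKM and rose to 11.0, 13.1 and 8.09 FPKM, the largest change of the 35 genes at 1.49 (SE 0.177, adjusted p = 0.00112, limma). Sox17, the arterial member of the family, was at 5.87, 5.38 and 6.92 FPKM and rose to 10.2, 11.7 and 9.89 FPKM, with a smaller log2 fold change of 0.72 (SE 0.09996, adjusted p = 0.00189, limma). None of the 4 overlapped between the genotypes, and in all 4 Mettl14Δfat replicate 2 was the highest library and replicate 3 the lowest of its group.

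The Notch pathway genes Notch4, the endothelial Notch receptor, and Dll4, the ligand on sprouting and arterial endothelium, both rose. Dll4 was at 3.95, 2.98 and 3.72 FPKM in Mettl14f/f and at 8.34, 9.60 and 7.04 FPKM in Mettl14Δfat eWAT, a log2 fold change of 1.03 (SE 0.127, adjusted p = 0.00125, limma). Notch4 was at 6.63, 4.95 and 6.71 FPKM and rose to 11.1, 12.2 and 11.2 FPKM, a log2 fold change of 0.83. Both genes kept a clear gap between the groups.

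The other 13 endothelial surface, secreted and signaling genes all rose, and their changes formed a range from 0.44 to 1.21. At the upper end stood Egfl7, a secreted endothelial protein that hosts miR-126 in its gene, Podxl, a sialomucin of the luminal surface, Emcn, an endomucin of capillaries and veins, and Rasip1, a Ras interactor needed for vessel lumens. Egfl7 was at 22.4, 20.9 and 22.1 FPKM in Mettl14f/f and at 52.6, 56.9 and 46.7 FPKM in Mettl14Δfat libraries (log2 fold change 1.21, SE 0.0812, adjusted p = 0.000221, limma). Podxl was at 5.97, 6.44 and 6.48 FPKM and rose to 15.0, 15.8 and 14.0 FPKM (1.13, SE 0.0623, adjusted p = 0.000151, limma). Emcn was at 16.1, 11.6 and 12.2 FPKM and rose to 28.6, 29.5 and 31.0 FPKM (1.12, SE 0.119, adjusted p = 0.000818, limma). In Emcn, Mettl14Δfat replicate 3 was the highest library of its group, not the lowest. Rasip1 rose by 1.00 on the log2 scale.

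In the middle of the range, with log2 fold changes of 0.64 to 0.89, were Ecscr (a regulator of endothelial migration), Aqp1 (a water channel of capillaries), Robo4 (a guidance receptor that stabilizes vessels), Clec14a and Mmrn2 (a surface lectin and the matrix protein it binds), Nos3 (endothelial nitric oxide synthase) and Plvap (the diaphragm protein of endothelial fenestrae and caveolae). Aqp1 was the most abundant of the 35 genes per kilobase, at 106.8, 80.7 and 100.6 FPKM in Mettl14f/f and 183.9, 211.2 and 140.0 FPKM in Mettl14Δfat libraries. Its Mettl14Δfat libraries spread widely (SD 35.9 FPKM) and still lay above all controls, with a log2 fold change of 0.88 (SE 0.173, adjusted p = 0.0068, limma). Nos3 was at 7.28, 6.27 and 7.56 FPKM and rose to 11.1, 14.7 and 10.04 FPKM, a log2 fold change of 0.67. Clec14a was low, with means of 1.902 FPKM in Mettl14f/f and 4.215 FPKM in Mettl14Δfat libraries, 2.22 times apart. Its log2 fold change of 0.84 on the log2(FPKM + 1) scale understates this, and so does its place in the range.

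The smallest rises of the 13 were those of Vwf and Eng. Vwf, von Willebrand factor, a clotting protein stored in endothelial Weibel-Palade bodies, was at 10.5, 10.1 and 9.61 FPKM in Mettl14f/f and at 14.4, 14.0 and 14.8 FPKM in Mettl14Δfat eWAT. With so little spread the log2 fold change of 0.48 (SE 0.0532, adjusted p = 0.000934, limma) was well resolved. Eng (endoglin), a co-receptor for BMP and TGF-β ligands that activated macrophages also express, was at 54.6, 57.6 and 56.7 FPKM and rose to 74.1, 74.8 and 81.3 FPKM, a log2 fold change of 0.44 (SE 0.0604, adjusted p = 0.00185, limma). Eng, Nos3 and Plvap overlap another gene on the chromosome (Fpgs, Atg9b and Gtpbp3), and no source used here says whether the counting used strand. Fpgs and Gtpbp3 did not pass the test, with log2 fold changes of 0.06 and −0.11, and Atg9b was under the filter of 1 FPKM.

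The libraries of a group differed from one another in the same order for most genes. Among the 30 endothelial genes, Mettl14f/f replicate 2 was the lowest of its group in 24, and in Mettl14Δfat replicate 2 was the highest in 23 and replicate 3 the lowest in 23. The mean of log2(FPKM + 1) over the 30 genes, set against the Mettl14f/f mean, was 0.09, −0.14 and 0.05 in Mettl14f/f libraries and 0.90, 1.02 and 0.81 in Mettl14Δfat libraries. The gap between the genotypes was thus several times the differences among mice of 1 genotype. The genes share their libraries, so these counts describe 6 mice and not 30 independent measurements.

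The ligands moved in different directions. Vegfa (chromosome 17, 46016993 to 46032377), the main growth factor for blood endothelium, was at 23.1, 21.3 and 26.0 FPKM in Mettl14f/f and at 58.5, 66.5 and 45.8 FPKM in Mettl14Δfat eWAT. All 3 Mettl14Δfat values exceeded all control values, 56.9 ± 10.4 against 23.5 ± 2.38 FPKM (SD, n = 3), with a log2 fold change of 1.23 (SE 0.143, adjusted p = 0.00105, limma). Vegfc, the growth factor for lymphatic endothelium, was at 4.05, 3.77 and 4.20 FPKM and rose to 11.3, 13.0 and 9.55 FPKM, a log2 fold change of 1.28 (SE 0.107, adjusted p = 0.00041, limma). Vegfb, a Flt1 ligand linked to lipid uptake and coronary vessels, was close to Vegfa in level in Mettl14Δfat eWAT but was not called. It was at 54.6, 47.6 and 53.0 FPKM in Mettl14f/f and at 49.2, 56.7 and 43.0 FPKM in Mettl14Δfat libraries, the groups overlapped, and the log2 fold change was −0.07 (95% interval −0.33 to 0.20, adjusted p = 0.638, limma). The ratio of Vegfa to Vegfb was accordingly 0.422, 0.448 and 0.491 in Mettl14f/f and 1.19, 1.17 and 1.07 in Mettl14Δfat libraries, so that Vegfb was the higher of the pair in every control and Vegfa in every Mettl14Δfat library. Vegfc stayed the lower partner of Vegfa, with a ratio of 0.176, 0.177 and 0.162 in Mettl14f/f and 0.193, 0.196 and 0.209 in Mettl14Δfat libraries.

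Angpt2 (chromosome 8, 18690263 to 18741562), which destabilizes vessels where it antagonizes Tek and is released by activated endothelium, was the only one of the 35 genes called lower. It was at 7.65, 8.67 and 7.78 FPKM in Mettl14f/f and at 4.18, 4.45 and 3.54 FPKM in Mettl14Δfat eWAT, or 8.03 ± 0.554 against 4.06 ± 0.467 FPKM (SD, n = 3). The groups did not overlap, and the log2 fold change was −0.84 (SE 0.0872, adjusted p = 0.000763, limma), with an adjusted p from 0.000407 to 0.0156 over 15 alternative analyses. Angpt2 lies within the gene Mcph1, which was also lower, at 3.45, 2.93 and 2.69 FPKM in Mettl14f/f and 2.43, 2.04 and 2.00 FPKM in Mettl14Δfat libraries (log2 fold change −0.35, adjusted p = 0.0300, limma), and without stated strand the reads of the pair may not be fully separated. Angpt1, the ligand that activates Tek and comes largely from mural and stromal cells, was low, at 1.32, 0.959 and 0.990 FPKM in Mettl14f/f and 1.59, 1.29 and 2.06 FPKM in Mettl14Δfat libraries. Its groups overlapped and its log2 fold change of 0.33 (95% interval −0.02 to 0.69, adjusted p = 0.101, limma) did not pass. It passed in 2 alternatives, with FPKM as deposited (adjusted p = 0.0474) and with each library's germ line level, averaged over the protamine and transition protein genes, as a covariate (adjusted p = 0.0301). The ratio of Angpt2 to Angpt1 was 5.80, 9.03 and 7.86 in Mettl14f/f and 2.64, 3.45 and 1.72 in Mettl14Δfat libraries, and that of Angpt2 to its receptor Tek was 0.901, 1.28 and 1.08 against 0.384, 0.417 and 0.370. Neither ratio overlapped between the genotypes.

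**Figure D2:**
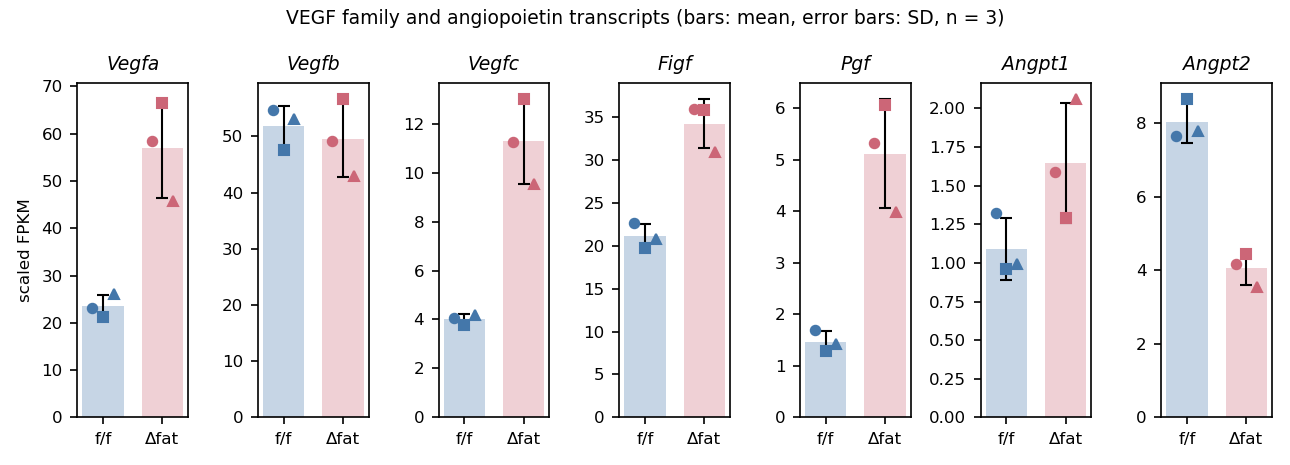
Scaled FPKM of the VEGF family and angiopoietin transcripts named above each panel, with 1 point per library, bars at the group mean and error bars of 1 SD (n = 3 per group). Vegfa and Vegfc sit higher in Mettl14Δfat eWAT and Angpt2 lower, while the points of Vegfb and Angpt1 overlap between the groups.

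The second question was whether the genes rose in step with one another. Each tested gene was set against Cdh5 in the same library, as the difference of their log2(FPKM + 1). FPKM as deposited were used here, so these differences depart slightly from those between the scaled fold changes above, and with scaled FPKM, an alternative added after seeing the data, 3 genes were higher (Vegfc in addition) and 12 lower. Of the 34 other genes, 2 were higher relative to Cdh5, 12 were lower and 20 did not pass (limma, adjusted p under 0.05). Of all 12954 genes fitted in this way, 1.26% were higher relative to Cdh5, 89.3% were lower and 9.42% did not pass. The 20 genes that did not pass included Pecam1, Icam2, Kdr, Flt1, Tie1, Erg, Dll4, Emcn, Egfl7, Podxl and Rasip1, and also the ligands Vegfa (0.21) and Vegfc (0.24). A missed threshold does not show equal change, and the standard errors of these differences were 0.0922 to 0.15.

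Sox7 (0.44, adjusted p = 0.0118, limma) and Sox18 (0.44, adjusted p = 0.00678) rose more than Cdh5, and Sox17, of the same family, rose less (−0.32, adjusted p = 0.0106). The call of Sox17 held in 11 of 15 alternatives. It was lost with Pecam1 as the reference (adjusted p = 0.285, limma), a pseudocount of 0.1 (0.0536) and the replicate block (0.0533). The ratio of Sox18 to Cdh5 was 0.557, 0.470 and 0.514 in Mettl14f/f and 0.691, 0.804 and 0.634 in Mettl14Δfat libraries, without overlap. Neither Sox7 nor Sox18 passed relative to Cdh5 with the germ line level as a covariate, and Sox7 did not pass without Mettl14f/f replicate 2 (adjusted p = 0.0522, limma). With Mettl14Δfat replicate 3 alone the differences were smaller, at 0.14 for Sox7 and 0.28 for Sox18.

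Among the endothelial genes that rose less than Cdh5, Tek (−0.61, adjusted p = 0.000246), Eng (−0.58, adjusted p = 0.0012) and Vwf (−0.55, adjusted p = 0.000739) lagged furthest in this limma fit. The ratio of Vwf to Cdh5 was 0.231, 0.256 and 0.210 in Mettl14f/f and 0.165, 0.149 and 0.171 in Mettl14Δfat libraries. Plvap, Cldn5, Nos3, Ptprb and Mmrn2 had differences of −0.38 to −0.24, and these calls were less firm: over 15 alternatives the call held in 5 for Mmrn2, 9 for Cldn5, 12 for Plvap and Nos3 and 13 for Ptprb, against 15 for Tek and Vwf and 14 for Eng. That of Mmrn2 was lost on leaving out Mettl14f/f replicate 1, Mettl14f/f replicate 3 or any 1 of the Mettl14Δfat libraries (adjusted p 0.0768 to 0.112), and that of Cldn5 without Mettl14f/f replicate 1, Mettl14f/f replicate 3, Mettl14Δfat replicate 1 or Mettl14Δfat replicate 3 (0.0756 to 0.14). Without Mettl14Δfat replicate 1 Nos3 (0.0514) and Plvap (0.0665) were not called either, nor was Nos3 without Mettl14Δfat replicate 3 (0.0596). The angiopoietins and Vegfb were also lower relative to Cdh5, with differences of −1.88 for Angpt2, −1.09 for Vegfb and −0.76 for Angpt1. Angpt1 was low, and the log2(FPKM + 1) scale overstates its lag. With a pseudocount of 0.1 its difference was −0.51 and did not pass (adjusted p = 0.104, limma). The choice of the reference gene also changed some of these calls. With Cdh5, Pecam1 and Tie1 each used in turn, the 6 genes Tek, Vwf, Eng, Angpt1, Angpt2 and Vegfb were lower in all 3 fits and Sox18 was higher in all 3. Of the others, 13 passed in none of the fits they entered and 15 changed their call. Between the genotypes Cdh5, Pecam1 and Tie1 had themselves risen, by 1.02, 0.88 and 1.17 on the log2 scale. A gene that did not change is thus lower relative to each. Vegfb and Angpt1 were not called between the genotypes, and 89.3% of all genes fitted were lower relative to Cdh5. Such shares were not counted for Pecam1 and Tie1.

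**Figure D3:**
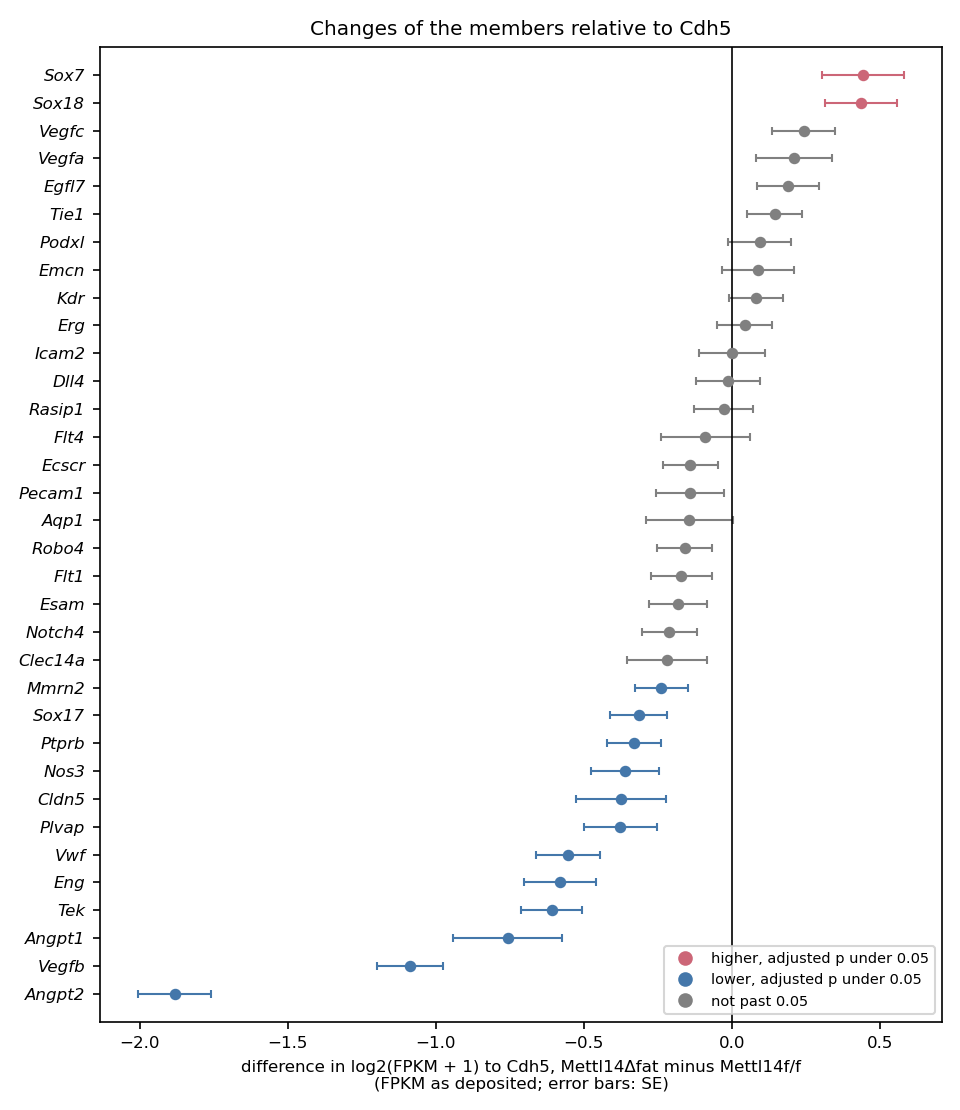
Points give the difference between Mettl14Δfat and Mettl14f/f in log2(FPKM + 1) of each gene minus that of Cdh5 in the same library, from limma on FPKM as deposited, with error bars of 1 SE, in red where higher, blue where lower and grey where not past an adjusted p of 0.05. Most endothelial genes lie between −0.38 and 0.19, Sox7 and Sox18 at 0.44, and Tek, Eng and Vwf near −0.6, while Angpt2 lies at −1.88.

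Further genes of the same pathways were less uniform. Of 23 other genes of the VEGF and angiopoietin pathway, 18 passed the filter, of which 10 were higher, 4 lower and 4 not called, with a median log2 fold change of 0.40. The largest rises were those of Sema3f, a semaphorin that binds neuropilins (1.58), Apln, the apelin peptide of sprouting endothelium (1.45), and Pgf, placental growth factor, a Flt1 ligand (1.30). Pgf was at 1.69, 1.28 and 1.43 FPKM in Mettl14f/f and at 5.32, 6.07 and 3.98 FPKM in Mettl14Δfat libraries. The largest falls were those of Nrp2, a co-receptor for VEGF-C and semaphorins (−0.92), and Dok2, an adaptor downstream of Tek that blood cells also express (−0.64). Chosen after their values were seen, Figf, which encodes VEGF-D, was at 22.7, 19.8 and 20.8 FPKM and rose to 35.9, 35.8 and 30.9 FPKM (log2 fold change 0.67, adjusted p = 0.00126, limma), and the apelin receptor Aplnr rose by 1.23. Of the hypoxia-inducible factors, Epas1 (HIF-2α, abundant in endothelium) rose by 0.75 (adjusted p = 0.002) while Hif1a fell by 0.37 (adjusted p = 0.00365) in limma's test. Nrp1, the VEGF-A co-receptor, overlapped between the groups, at a log2 fold change of 0.03 (adjusted p = 0.766).

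Among 16 tested Notch and arteriovenous genes 11 were higher, 3 lower and 2 not called, with a median log2 fold change of 0.48. Jag2, a Notch ligand (1.03), Gja4, the arterial connexin 37 (0.88), and Ephb4, the venous ephrin receptor (0.81), rose most, so that genes of both arteries and veins were among the called. Acvrl1 (ALK1), the BMP9 receptor that acts with endoglin, fell by 0.35 and Notch2 by 0.28. The lower calls numbered 0 with FPKM as deposited, with the germ line covariate and with Mettl14Δfat replicate 3 alone, where 6 genes were higher. Among 30 other endothelial genes 20 were higher, 4 lower and 6 not called, with a median of 0.56. Bcl6b, a transcriptional repressor enriched in endothelium (1.52), Myct1, an endothelial membrane protein (1.25), and Gpihbp1, which carries lipoprotein lipase to the capillary lumen (1.21), rose most. Gpihbp1 was at 73.1, 56.0 and 78.1 FPKM in Mettl14f/f and at 160.4, 170.1 and 148.2 FPKM in Mettl14Δfat libraries. Procr, the endothelial protein C receptor, fell by 1.195 on the log2 scale, and Hhex, a homeobox factor of blood and endothelial progenitors, by 0.51. Cd34 (−0.01), Cd93 (−0.03) and Thbd (0.08), surface proteins that endothelium shares with other cells, did not pass, so the rise did not extend to every gene used as an endothelial marker.

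Of 7 genes of activated endothelium, 5 were tested and 2 were higher: Selp, P-selectin (0.42), and Ackr1, the chemokine scavenger of venules (0.31). Neither was called without Mettl14f/f replicate 2, without Mettl14f/f replicate 3, with no filter or with Mettl14Δfat replicate 3 alone, and 1 of the pair was called without Mettl14Δfat replicate 1 or 2. Icam1 had a log2 fold change of −0.10, and Sele, E-selectin, was at most 0.39 FPKM in any library. Of 9 lymphatic genes, 7 were tested, and 3 were higher, 2 lower and 2 not called. Ccl21a, the chemokine of lymphatic vessels, was at 37.8, 15.3 and 15.3 FPKM in Mettl14f/f and at 85.5, 114.3 and 57.2 FPKM in Mettl14Δfat libraries (1.94, adjusted p = 0.00784, limma), Lyve1, a hyaluronan receptor that some macrophages also carry, rose by 1.48, and Foxc2, a factor of lymphatic valves, by 0.42. Pdpn, podoplanin, fell by 0.89 and Stab2, a scavenger receptor, by 0.56. With Mettl14Δfat replicate 3 alone 0 lymphatic genes were higher and 1 was lower, with the germ line covariate 1 was higher, and 1 was lower in each fit that left out a library other than Mettl14Δfat replicate 3. Prox1, the defining factor of lymphatic identity, was at most 0.18 FPKM in any library, under the filter.

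Mural cells, the pericytes and smooth muscle around vessels, were represented by 14 genes, of which 10 were higher and 4 lower, with a median of 0.52. Rgs5, a pericyte regulator of G protein signaling (1.42), Myh11, smooth muscle myosin (1.14), and Kcnj8, a pericyte potassium channel (1.11), rose, whereas Acta2, smooth muscle actin, fell by 0.43 and Pdgfrb, the pericyte receptor for PDGF-B, by 0.31. The rises were steadier than the falls: 8 to 10 genes were higher with each library left out and 6 with Mettl14Δfat replicate 3 alone, whereas 0 were lower with FPKM as deposited, with Mettl14Δfat replicate 3 alone and on leaving out either Mettl14f/f replicate 3 or Mettl14Δfat replicate 1. Leaving out Mettl14f/f replicate 2 gave 1 lower call, as did the germ line covariate, and leaving out Mettl14Δfat replicate 2 gave 2. Of 9 tested angiogenesis inhibitors 5 were higher and 2 lower: Spry4, a feedback inhibitor of receptor signaling (1.18), Cxcl10, an angiostatic chemokine (0.95), and Vash1, vasohibin made by endothelium (0.61), rose, and the thrombospondins Thbs2 (−1.17) and Thbs1 (−0.58) fell.

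Over the companion genes of all 14 lists, which include the markers of other cell types described below, 152 were tested. Of these, 71 were higher and 32 lower, against 24.4% and 25.2% of all tested genes. With Mettl14Δfat replicate 3 alone 39 were higher and 23 lower, against 10.6% and 9.98% of all tested genes.

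Markers of other cell types moved alongside. All 12 macrophage genes were tested, 9 were lower (8 with Mettl14Δfat replicate 3 alone) and none was higher, with a median log2 fold change of −1.33. Their summed level ran from 9248 to 11220 FPKM in Mettl14f/f and from 2456 to 4548 FPKM in Mettl14Δfat libraries. Mmp12, the macrophage elastase (−3.40), Gpnmb, a glycoprotein of lipid-loaded macrophages (−2.90), and Itgax, CD11c (−2.33), fell most. The 5 tested erythroid genes were all higher, with a median of 1.2 and sums of 2148 to 3280 FPKM against 3980 to 9179 FPKM. Hba-a1, a hemoglobin chain, was at 1249, 956.6 and 1393 FPKM in Mettl14f/f and at 3042, 4071 and 1720 FPKM in Mettl14Δfat libraries (1.23), Hbb-bt rose by 1.30 and Hbb-bs by 1.2, and the near-identical hemoglobin genes may share reads. As for the endothelial genes, Mettl14Δfat replicate 2 was the highest and replicate 3 the lowest of its group in the erythroid sum. The erythroid calls were not stable: 0 of the 5 were called without Mettl14f/f replicate 2, without Mettl14Δfat replicate 1, with Mettl14Δfat replicate 3 alone or with the germ line covariate, 1 with no filter, 2 with the replicate block, and 3 without Mettl14f/f replicate 1 or without Mettl14Δfat replicate 2. The part of macrophage and erythroid content in the endothelial result was not tested.

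Of 12 adipocyte genes 3 were higher, 3 lower and 6 not called, shares close to the 24.4% and 25.2% of all tested genes, with sums of 7976 to 10990 FPKM in Mettl14f/f and 10350 to 14940 FPKM in Mettl14Δfat libraries. Most of each sum was Fabp4, at 7732, 5786 and 6876 FPKM in Mettl14f/f and 10720, 11990 and 8435 FPKM in Mettl14Δfat libraries, so the sums mainly show that gene. Adipoq, the adipocyte hormone adiponectin and a check of the labelled tissue, was at 589, 335 and 485 FPKM in Mettl14f/f and 368, 432 and 247 FPKM in Mettl14Δfat libraries and did not pass. Fabp4, the fatty acid binding protein (0.61), Acsl1, an acyl-CoA synthetase (0.45), and Pparg, the adipogenic receptor (0.44), rose, and Pck1, an enzyme of glyceroneogenesis (−1.08), and Plin4, a lipid droplet coat protein (−0.65), fell. The higher calls dropped to 1 without Mettl14f/f replicate 2, Mettl14f/f replicate 3, Mettl14Δfat replicate 1 or Mettl14Δfat replicate 2 and to 0 with Mettl14Δfat replicate 3 alone, and the lower calls to 1 without Mettl14f/f replicate 1, Mettl14f/f replicate 3 or Mettl14Δfat replicate 1, while the germ line covariate gave 1 higher and 5 lower and the replicate block 1 of each. Of 7 platelet genes 4 were tested: Pf4, a chemokine that macrophages also express (0.83), and Ppbp (0.50) were higher and Itgb3, an integrin chain shared with macrophages, was lower (−1.09), and Itga2b, an integrin chain of platelets, had a mean of 1.72 ± 0.234 FPKM in Mettl14Δfat against 1.11 ± 0.237 FPKM in Mettl14f/f libraries (SD, n = 3 each), without overlap and without passing limma's test (adjusted p = 0.0577). The higher platelet calls dropped to 1 on leaving out Mettl14f/f replicate 1, Mettl14f/f replicate 2 or Mettl14Δfat replicate 2, and to 1 with Mettl14Δfat replicate 3 alone. Of the platelet receptor subunits, Gp9 and Gp6 were at most 0.344 FPKM and Gp1ba at most 0.774 FPKM in any library. Platelets also hold Vwf, and their part in its rise was not tested. None of the 7 tested mesothelial genes was called by limma, 0 had an unadjusted p under 0.05, and their sums were 36.2 to 42.2 FPKM against 22.3 to 58.5 FPKM; Upk3b and Krt19, the most abundant, had log2 fold changes of −0.30 and 0.89. Mesothelial calls did appear under other settings: 4 genes were lower with Mettl14Δfat replicate 3 alone and 4 with the germ line covariate, 3 were lower without Mettl14Δfat replicate 2, and 1 was higher without Mettl14Δfat replicate 3.

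The 7 male germ line genes summed to 11.6 to 12.7 FPKM in Mettl14f/f libraries and to 190.3, 291.6 and 11.1 FPKM in Mettl14Δfat libraries. Prm1 and Prm2 were the most abundant in Mettl14Δfat replicates 1 and 2. In the other libraries the sum was almost wholly Odf2, at 11.98, 11.35 and 11.7 FPKM in Mettl14f/f and 10.78 FPKM in Mettl14Δfat replicate 3. The 8 genes of epididymal and ductal epithelium summed to 1.63 to 3.13 FPKM against 75.5, 125.3 and 1.36 FPKM, with Mmp7, a matrilysin of ductal epithelium, at 24.7, 38.5 and 0 FPKM in Mettl14Δfat libraries and Krt8, a keratin, at 15.2, 27.4 and 0.484 FPKM. None of the tested genes of either list was called between genotypes by limma, and 6 and 4 of them had an unadjusted p under 0.05, whereas without Mettl14Δfat replicate 3 all 7 and all 6 tested genes were higher. Mettl14Δfat replicate 3, which was close to the Mettl14f/f libraries in both sums, had an endothelial sum of 957.8 FPKM, above every Mettl14f/f library.

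**Figure D4:**
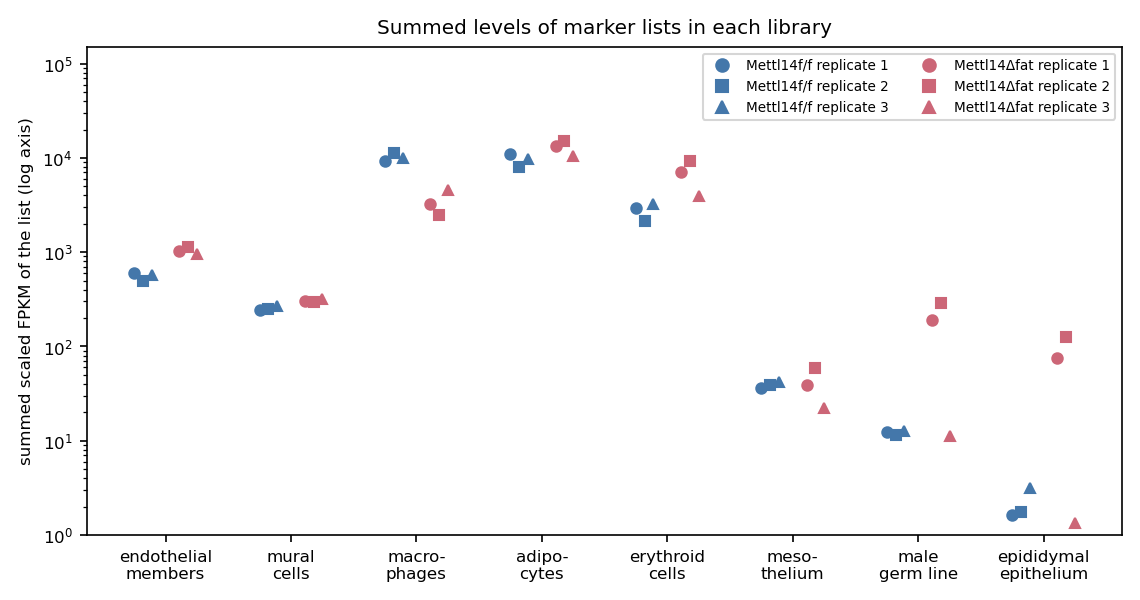
Summed scaled FPKM of each marker list in each library, on a log axis, with Mettl14f/f in blue and Mettl14Δfat in red and the replicate shown by the symbol. The sum of the 30 endothelial genes is higher and the macrophage sum lower in all 3 Mettl14Δfat libraries, while the germ line and epididymal sums are high only in Mettl14Δfat replicates 1 and 2.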

How the data were processed

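Total RNA of the 6 eWAT samples (3 per genotype) was made into libraries by oligo dT selection or rRNA depletion, whichever was used, and sequenced on a DNBseq platform. The authors deposited FPKM per gene and library, rounded to 2 decimals. The paper's methods name STAR and HTSeq, whereas HISAT2, Bowtie2, RSEM and the build mm10 appear in the submitters' processing notes, all without versions. The gene length in the authors' deposited table of changed genes served only to estimate depth from steps of low FPKM values, of which 80.0% to 95.1% per library were within 0.15 of a whole fragment. The group means, fold changes and p-values of the authors' own comparison in that table were not used.

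Of 21362 entries 1 had no name and was left out, and 27 symbols turned into dates were restored. Libraries were scaled over the 12955 genes whose mean reached 1 FPKM by a trimmed mean of M values (30% of ratios and 5% of levels trimmed, factors 0.928 to 1.08), and these genes were tested on log2(FPKM + 1) with limma 3.58.1 in R 4.3.3 (lmFit, eBayes with a trend, two-sided), with Benjamini-Hochberg adjustment over all tested genes. Levels in the text are scaled FPKM, ratios of 2 genes are of FPKM as deposited, and 95% intervals use limma's moderated variance. FPKM cannot enter a count test, and none was run. With 3 mice per group, the spread between mice sets the precision.

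All 35 genes are named, and in each companion list up to 3 genes with the largest called change in the main direction and up to 2 in the other, or the 2 most abundant where none was called. Genes named beyond that were chosen after their values were seen. The genes and the 14 companion lists (171 of 172 genes found) were chosen with earlier results of these data known, as were the promoter motifs. Gene coordinates and promoters came from RefSeq tables of GRCm38. Alternatives for the scaling were the median of ratios, the FPKM as deposited, and factors from all genes above 0. Other alternatives were no filter or a filter of 1 FPKM for each library, a pseudocount of 0.1, a replicate block, the germ line level (Prm1, Prm2, Tnp1, Tnp2) as a covariate, Mettl14Δfat replicate 3 alone, each library left out, and Pecam1 or Tie1 in place of Cdh5. The fits relative to Cdh5 used FPKM as deposited, and scaled FPKM were added as an alternative after seeing the data. The procedure was tested on simulated data.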

Additional observations from a re-analysis of the deposited data

How the results depend on the processing

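Over 15 alternatives the 35 genes gave 524 values, of which 505 kept their side of the threshold, 17 lost the call and 2 gained it. Among genes called in the main fit 0 values reversed direction. For genes not called there, a change of direction was not counted. Leaving out each library in turn gave 31 to 32 genes higher, 1 lower and a median log2 fold change of 0.80 to 0.96. Mettl14Δfat replicate 3 alone gave 24 higher and the germ line covariate 30. Relative to Cdh5, against 2 genes higher and 12 lower, 0 were higher with the germ line covariate, 0 higher and 7 lower with Mettl14Δfat replicate 3 alone, 6 lower with Pecam1 as the reference, and 1 higher and 19 lower with Tie1, while leaving out each library gave 2 to 4 higher, the most without Mettl14Δfat replicate 3, and 8 to 14 lower. Of the companion genes, 71 were higher and 32 lower, against 20 lower with FPKM as deposited and 39 higher and 23 lower with Mettl14Δfat replicate 3 alone, and 56 to 88 higher and 22 to 33 lower with a library left out. The cause of these shifts was not tested, but replicate 3 alone leaves 4 libraries. Among all genes, FPKM as deposited gave 4672 higher and 1963 lower, with a median log2 fold change of 0.15, in place of 3167 and 3260, and Mettl14Δfat replicate 3 alone gave 1368 and 1293, the germ line covariate 2112 and 2046, and leaving out a library between 2196 and 3738 higher. The labels do not say whether the replicate numbers pair the mice. Deviations of same-numbered libraries correlated at 0.04, −0.09 and −0.13, which cannot decide this with 3 mice per group. With the replicate block 31 genes were higher and 1 lower (Cldn5 was lost, adjusted p = 0.0746, limma), 2 higher and 9 lower relative to Cdh5, 61 and 27 of the companion genes, and 2608 and 2619 of all genes. Angpt1, the least abundant of the 35 genes, had 77 estimated fragments in its shallowest library, so that counting error is largest there.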
